A study of Mus musculus with 11 samples.

Results

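The comparison set livers of mice killed 12 h after an injection of 5'-adenosine monophosphate (5'-AMP) directly against livers of mice killed 6 h after the same injection. It used 8 of the series' 11 samples and, of 45281 probes, the 16320 whose signal was detected above background (detection p under 0.05) on at least 3 of those 8 arrays. These probes stand for 11483 genes. All 8 animals were female C57Bl/6 mice that had received 0.5 mg of 5'-AMP per g of body weight. Total liver RNA of each was hybridised to its own Illumina mouse BeadChip array. The 4 arrays at 6 h carry the label AIHM. The 4 arrays at 12 h carry the titles Rev Flip and, in the design text, RF, and what these abbreviations stand for is not stated. The 3 vehicle controls entered only 1 alternative fit, on all 11 arrays, so every difference below is between 2 treated groups and none is a distance from the untreated liver. The labels give neither the animals' age nor the hour of injection or death, so time since injection and hour of day cannot be told apart. Nothing in the labels ties an animal at 6 h to one at 12 h.

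5'-AMP is a purine nucleotide that enzymes on cell surfaces dephosphorylate to adenosine, and the series' title describes the state after its injection as hypometabolism. The liver answers stress with immediate early genes, whose transcripts appear within minutes without new protein synthesis and many of which encode transcription factors of the AP-1 family. It also holds a circadian clock, in which Bmal1 (Arntl) and Clock switch on the Per, Cry and Rev-erb repressors, and these in turn shut Bmal1 and Clock activity down. Metabolic genes of the liver follow the clock, feeding, insulin and glucocorticoids.

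Mean raw signals per array ran from 458 to 635 intensity units at 6 h and from 412 to 494 at 12 h. Values below are log2 signals after background correction and quantile normalisation across the 8 arrays, and a change is the 12 h mean minus the 6 h mean on that scale with its standard error. The 4 arrays at 6 h were less alike (pairwise r of 0.966 to 0.988 over probes) than the 4 at 12 h (0.983 to 0.990). The median probe had an SD of 0.24 at 6 h and 0.18 at 12 h, and 66.4% of probes varied more at 6 h. On the first principal component, with 35.0% of the variance, 6 h arrays 2 and 4 lay at 23.0 and 41.5 and 6 h arrays 1 and 3 at -28.2 and -22.3. The 12 h arrays lay between, from -13.4 to 10.8, so this axis did not separate the times. On the second component, with 24.7%, the 6 h arrays lay from -23.8 to -9.68 and the 12 h arrays from 3.46 to 28.7. The 2 arrays with the highest first component were also the brightest.

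**Figure D1:**
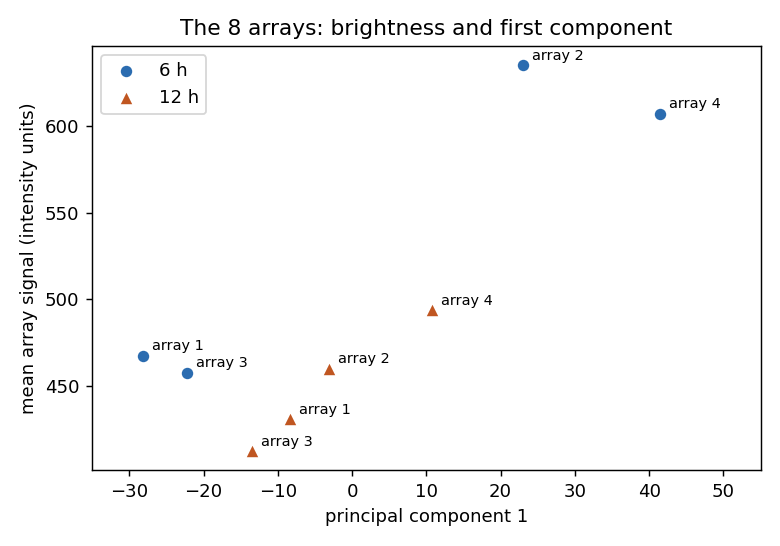
Mean raw signal of each array in intensity units (vertical axis) against its first principal component (horizontal axis), with circles for the 4 arrays at 6 h and triangles for the 4 at 12 h. Arrays 2 and 4 at 6 h lie to the upper right, apart from the other 6 h arrays, and the 12 h arrays lie between them.

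The tissue label was checked against cell type markers. Of 10 hepatocyte markers 9 were detected on all 8 arrays, among them the plasma protein genes Alb, Apoa1 and Ttr, and 1 (Fgb) on none. Of the markers of other cells, those of adipocytes and pancreatic acinar cells included, none passed the test described below (limma). At an unadjusted p under 0.05, 11 of the 58 measured over 10 lists were lower (19%, against 9.04% of all genes) and 0 were higher (against 5.54%), and 48 of the 58 had negative changes. The hepatocyte markers had a median change of 0.17, with all 9 positive, and per-array list medians of -0.14 to 0.03 at 6 h and 0.04 to 0.11 at 12 h around the mean of the 8 arrays. Without both of the brightest 6 h arrays that median was 0.03, with median centring it was 0.33, and within the 2 BeadChips that held both times it was -0.01 and 0.15. Sinusoidal endothelial markers had -0.24 (9 genes, 3 lower at an unadjusted p under 0.05). Stellate cell markers had -0.32 (7 genes, 2 lower), and -0.08 without the brightest 6 h arrays. T and NK cell markers had -0.30 (7 genes, 3 lower) and B cell markers -0.50 (3 genes, 1 lower), and without those arrays these were 0.22 and 0.11. Erythroid markers had -0.31, with 6 of 6 negative, and pancreatic acinar markers -0.45 (3 genes), which was -0.07 without those arrays. Neutrophil markers had -0.28 (4 genes) and adipocyte markers -0.27 (3 genes), and without those arrays these were 0.41 and 0.66. Of the lists of other cells only the cholangiocyte list had a positive median, of 0.12, with 3 of its 5 markers positive. Kupffer cell markers had -0.25 (11 genes), with per-array list medians from -0.46 to 0.79 at 6 h and from -0.42 to 0.19 at 12 h, and 0.03 without the brightest 6 h arrays. In turn within those 2 BeadChips, Kupffer cell markers had 0.65 and -1.07, B cell markers 1.48 and -1.29, and T and NK cell markers 0.24 and -1.10. Erythroid markers had 0.14 and -0.43 there, and pancreatic acinar markers 1.18 and -0.80. Endothelial markers had -0.14 and -0.53, and stellate cell markers -0.18 and -0.51. In whole liver, fewer cells of a type and less RNA per cell cannot be told apart. The part of these shifts in the results below was not tested.

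Of the 16320 probes, 102 passed the test (0.625%; limma, adjusted p under 0.05), 62 of them higher at 12 h (0.38%) and 40 lower (0.245%). Counted by gene, with the brightest probe standing for each, 80 of 11483 changed (0.697%), 47 upward (0.409%) and 33 downward (0.287%). At least 2-fold changes were seen for 30 of the genes that rose and 8 of those that fell. The median change of all genes was -0.01. In each of the 80 genes the 4 arrays of one time lay wholly above the 4 of the other. Over all genes this held for 3.55% with 12 h higher and 6.49% with 12 h lower. An unadjusted p under 0.05 was reached by 5.54% of all genes upward and 9.04% downward. Counts at that threshold in the lists below stand against these shares, and counts of called genes against 0.409% upward and 0.287% downward. The lists and their members were chosen with earlier results of these data known. Setting their counts beside these shares is therefore a description and no test of a list.

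**Figure D2:**
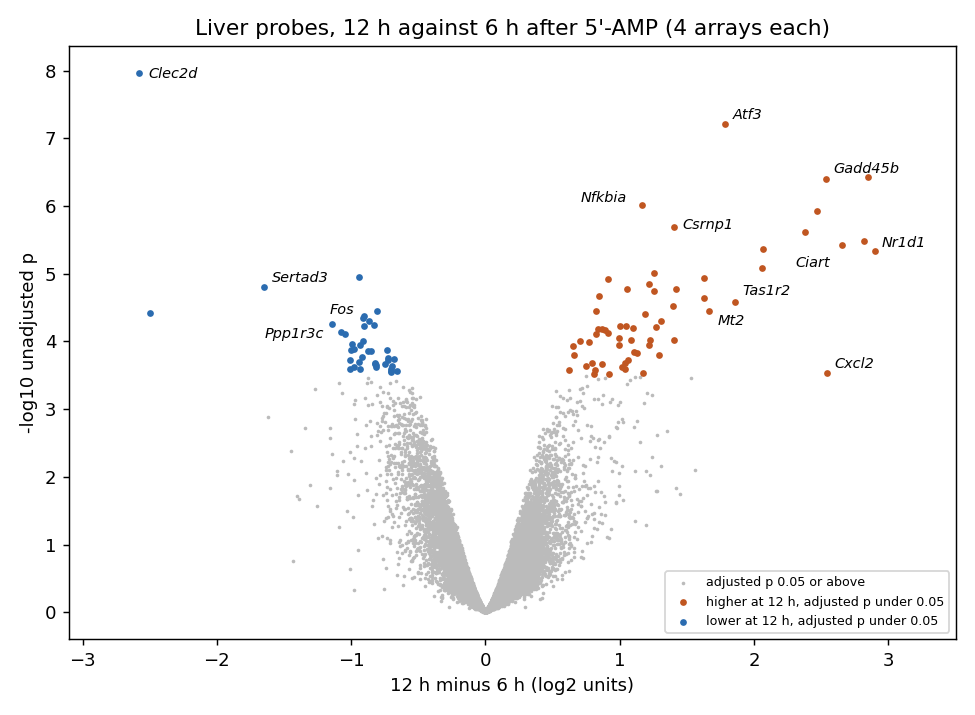
Each point is 1 of the 16320 probes, placed by its change from 6 h to 12 h in log2 units (horizontal axis) and by -log10 of its unadjusted limma p (vertical axis), with 4 arrays per time. The 62 probes that rose and the 40 that fell are coloured. Unlabelled coloured points include further probes of labelled genes, and most of the largest changes are increases.

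The steepest increases belonged to the circadian clock. Nr1d1, which encodes the haem-sensing repressor Rev-erb alpha, read 8.09, 7.95, 8.44 and 6.73 on 6 h arrays 1 to 4 and 10.97, 10.35, 10.95 and 10.54 on 12 h arrays 1 to 4. All 12 h arrays lay above all 6 h arrays, and 6 h array 4 was the lowest. The change was 2.90 ± 0.33, a 7.45-fold rise (limma, adjusted p = 0.00628). A further Nr1d1 probe gave 2.85 ± 0.25 (adjusted p = 0.00161).

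Ciart, named Gm129 on the array, encodes a repressor of the Bmal1 and Clock pair. It read 6.55, 6.15, 7.33 and 5.70 at 6 h and 9.17, 8.94, 9.32 and 8.94 at 12 h. The 12 h arrays sat close together, above 6 h values that were spread widely, and the change was 2.66 ± 0.29, or 6.31-fold (adjusted p = 0.00619). Its other probes gave 2.82 (adjusted p = 0.00593) and 2.47 (adjusted p = 0.00324). Both genes kept their call in each of the 8 fits that left out 1 array, at adjusted p of up to 0.042 for Nr1d1 and 0.0417 for Ciart.

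Of the other Bmal1-Clock and Rev-erb genes, 0 of 6 passed, and of the other clock repressors 0 of 4 by the brightest probe (limma; 0 and 2 at an unadjusted p under 0.05). Arntl (Bmal1) had 0.20 ± 0.23, its partner Clock -0.15 ± 0.13 and the Clock relative Npas2 0.27 ± 0.23, with adjusted p of 0.643 to 0.749. Nr1d2, the close relative of Nr1d1 that encodes Rev-erb beta, read 6.12, 7.03, 6.83 and 6.93 at 6 h and 6.72, 6.72, 6.46 and 7.03 at 12 h, a difference of 0.00 ± 0.21 (adjusted p = 0.996). Its arrays overlapped almost entirely. Per2, a core repressor, read 9.20, 8.30, 10.14 and 8.09 at 6 h and 9.52, 9.15, 10.66 and 8.68 at 12 h. Array 3 was the highest at each time and the groups overlapped (0.57 ± 0.50, adjusted p = 0.653). Bhlhe40, which encodes the repressor Dec1, had 0.60 ± 0.19 (adjusted p = 0.205). The E4BP4 gene Nfil3, a repressor of D-box promoters, had 0.63 ± 0.13 (adjusted p = 0.0776) and its antagonist Dbp 0.28 ± 0.25 (adjusted p = 0.665). Probes for Cry1 did not pass the detection filter.

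Per1 gave different answers by probe. The brightest probe annotated Per1 had 0.31 ± 0.22 (adjusted p = 0.571) and another had 0.36 (adjusted p = 0.580). A probe annotated only as Per, which RefSeq lists as an older name of Per1, read 6.50, 6.36, 6.53 and 5.43 at 6 h and 8.19, 8.20, 8.65 and 8.01 at 12 h. Its groups did not overlap, and the change was 2.06 ± 0.25 (adjusted p = 0.0105). Whether that probe measures the same Per1 transcript was not tested.

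**Figure D3:**
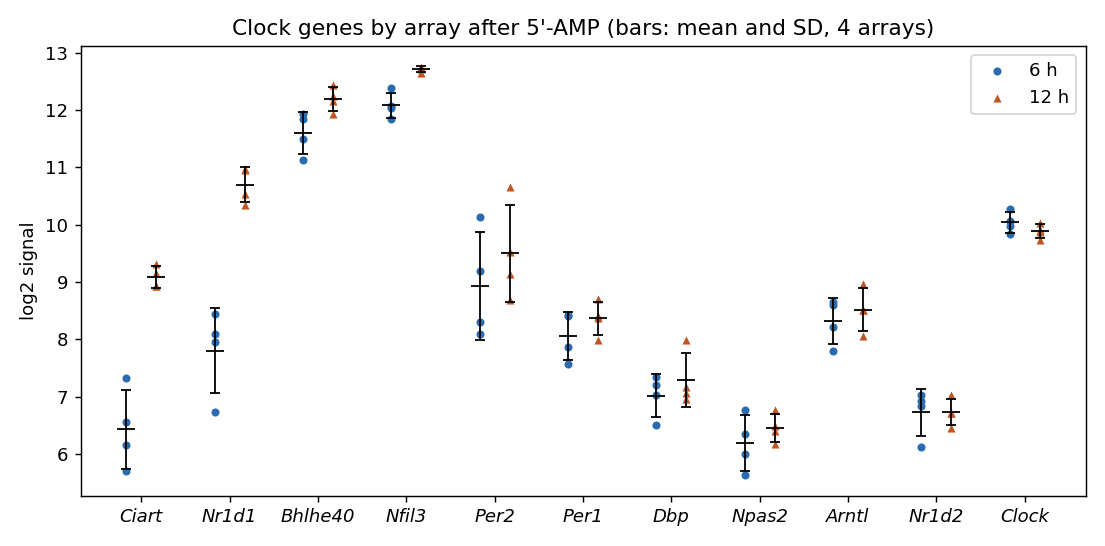
Log2 signal (vertical axis) of 11 clock genes on the 4 arrays at 6 h (circles) and the 4 at 12 h (triangles), with bars for mean and SD. Levels of different genes come from different probes and are not comparable with each other. Ciart and Nr1d1 are fully separated between the times, while Per2, Arntl, Nr1d2 and Clock overlap.

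The 250 bases before the annotated start of each of these leading clock genes are shown because the pair moved together and because Bmal1 and Clock are known to bind the E-box. Sequences are from RefSeq on GRCm38.p6, each on its gene's own strand (minus for both), at chr3:95882229-95882478 for Ciart and chr11:98775378-98775627 for Nr1d1. Both windows are upstream of the transcribed region. Capitals mark the E-box letters CACGTG, which read the same on both strands.
Ciart: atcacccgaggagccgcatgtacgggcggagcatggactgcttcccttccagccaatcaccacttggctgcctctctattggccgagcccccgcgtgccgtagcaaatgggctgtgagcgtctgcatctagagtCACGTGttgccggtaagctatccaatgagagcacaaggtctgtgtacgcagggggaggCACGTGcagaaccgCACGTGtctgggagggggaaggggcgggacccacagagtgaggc
Nr1d1: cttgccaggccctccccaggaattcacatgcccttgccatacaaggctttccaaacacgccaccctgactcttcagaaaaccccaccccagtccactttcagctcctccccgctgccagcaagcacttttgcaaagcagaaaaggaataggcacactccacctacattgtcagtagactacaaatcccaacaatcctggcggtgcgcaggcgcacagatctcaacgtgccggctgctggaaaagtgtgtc
The Ciart window held 3 matches, whose first bases lie at -116, -58 and -44 from the start, and the Nr1d1 window 0. Among 32851 such windows of all RefSeq genes 6.02% held at least 1 match. Of the 37 named genes that passed and had such a window, 8 had a match in at least 1 window. Of 2 Per1 windows, 1 held 1 match and the other 0, and the windows of Nfil3, Arntl, Npas2, Clock, Nr1d2 and Dbp held 0. These matches describe the letters and are not evidence of binding, and the absence of a match concerns only these windows.

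Among the AP-1 and ATF3 transcription factor genes 5 of 8 measured members rose and 1 fell (against 0.409% and 0.287% of all genes). The median change was 1.06. By array the list's median ran from -0.79 to -0.22 at 6 h and from 0.35 to 0.66 at 12 h, relative to the mean of the 8 arrays. Atf3, a stress-induced factor of the ATF and CREB family, read 9.26, 9.22, 9.54 and 9.24 at 6 h and 11.01, 10.95, 11.20 and 11.25 at 12 h. All 12 h arrays were higher by more than the spread of either group. Its change of 1.79 ± 0.13, or 3.45-fold, had the smallest adjusted p among the genes that rose (0.000501, and at most 0.00519 with 1 array left out).

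The other members that rose were the AP-1 subunit genes Fosb, Junb and Jun and the small Maf gene Maff. Junb read 11.45, 11.32, 11.41 and 10.91 at 6 h and 12.41, 12.23, 12.71 and 12.13 at 12 h (1.10 ± 0.17, adjusted p = 0.0244). Jun read 8.85, 8.09, 8.52 and 8.02 at 6 h and 9.44, 9.24, 9.48 and 9.40 at 12 h (1.02 ± 0.18, adjusted p = 0.0444). For both genes every 12 h array was above every 6 h array. Fosb had 1.30 ± 0.19 (adjusted p = 0.0236), but its other probe, detected on all 8 arrays, gave 0.27 ± 0.35 (adjusted p = 0.782). Maff had 1.11 ± 0.19 (adjusted p = 0.0349) and was detected on 1 of 4 arrays at 6 h. It passed the detection filter only through its 12 h arrays, so the size of its rise is uncertain. Of the 8 fits that left out 1 array, 3 kept the call of Junb, 1 that of Jun, 3 that of Fosb and 1 that of Maff.

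Fos, the founding AP-1 gene, moved the other way. It read 12.22, 12.13, 12.26 and 12.50 at 6 h and 11.52, 11.35, 11.55 and 11.24 at 12 h. Each 12 h array was below each 6 h array, and the gene fell by 0.86 on the log2 scale (SE 0.13, adjusted p = 0.0236), or 1.82-fold. With 1 array left out its adjusted p reached 0.0873, and 3 of 8 such fits kept the call. Within the 2 BeadChips that held arrays of both times, Fos was lower at 12 h by differences of -0.91 and -1.26, and Jun was higher by 0.73 and 1.38. Jund had 0.65 and the Fos relative Fosl2 -0.46, and neither passed.

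Of 16 other immediate early genes 2 rose and 0 fell (median 0.34). Csrnp1, named Axud1 on the array and encoding a nuclear factor induced by Axin, read 10.60, 10.95, 11.19 and 10.85 at 6 h and 12.32, 12.35, 12.42 and 12.11 at 12 h. The 12 h arrays lay in a narrow band above all 6 h arrays (1.40 ± 0.14, adjusted p = 0.00475). Ccn1 (Cyr61), a secreted matrix protein gene that is a target of serum response factor and YAP, read 7.54, 7.75, 7.54 and 7.78 at 6 h and 8.55, 8.76, 8.53 and 8.99 at 12 h (1.05 ± 0.14, adjusted p = 0.0129, and up to 0.0554 without 12 h array 1 or 2). Its other probes gave 0.86 and 1.15, with adjusted p of 0.321 and 0.134. Egr1, the zinc finger factor, read 13.78, 13.48, 13.79 and 13.76 at 6 h and 14.35, 14.22, 14.03 and 14.24 at 12 h. The groups did not overlap, yet 0.51 ± 0.12 did not pass (adjusted p = 0.118). Ier2, singled out after its values were seen, had -1.27 and did not pass either.

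**Figure D4:**
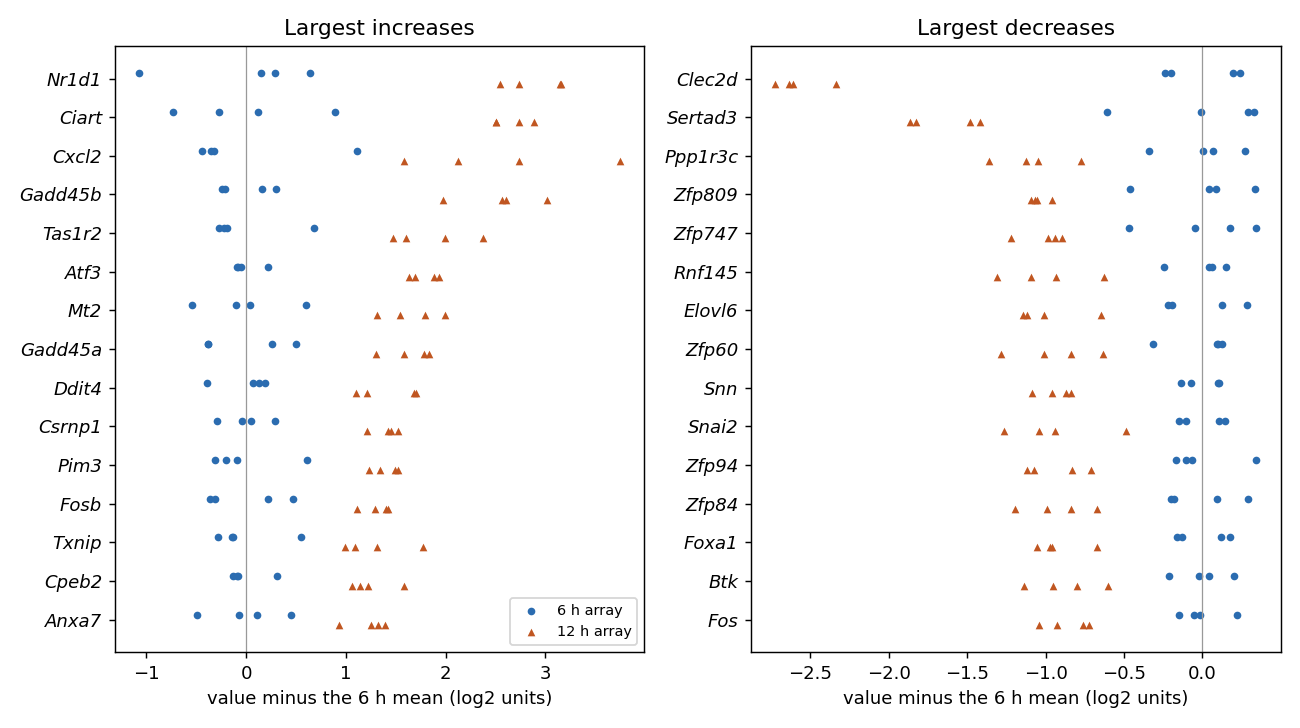
The 15 named genes with the largest increases (left) and the 15 with the largest decreases (right). Each point is 1 array, plotted as its log2 value minus the gene's 6 h mean (horizontal axis), with circles for 6 h and triangles for 12 h. Only genes whose groups did not overlap were eligible, so the separation seen is a condition of entry. The 6 h arrays of Nr1d1, Ciart and Cxcl2 are spread more widely than those of Atf3.

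Growth arrest and DNA damage genes were next. Of 16 p53 targets and Gadd45 family members 2 rose and 0 fell (median 0.25), and per-array list medians ran from -0.22 to -0.16 at 6 h and from 0.06 to 0.24 at 12 h. Gadd45b, a stress sensor that binds MAP kinase kinases and is induced by NF-kappaB, read 7.09, 7.46, 7.06 and 7.60 at 6 h and 9.86, 9.27, 9.91 and 10.32 at 12 h. Every 12 h array was well above every 6 h array (2.54 ± 0.22, or 5.81-fold, adjusted p = 0.00161). Its other probe was not detected on any 6 h array and gave at least a 2.13-fold rise (adjusted p = 0.0114), taking the lowest detected signal of each 6 h array, or the probe's own if higher, as the ceiling at 6 h.

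Gadd45a, a p53 target of the same family, read 9.65, 9.02, 9.90 and 9.02 at 6 h and 10.98, 10.70, 11.18 and 11.23 at 12 h. The 6 h arrays formed 2 higher and 2 lower values, all below the 12 h arrays. The change was 1.63 ± 0.22 (adjusted p = 0.0155, called in 4 of the 8 fits without 1 array), with 1.22 ± 0.16 from its other probe (adjusted p = 0.0129). The cell cycle inhibitor gene Cdkn1a (p21) read 9.24, 8.35, 8.41 and 8.62 at 6 h and 9.49, 9.67, 10.17 and 9.91 at 12 h. Its groups did not overlap, and 1.15 ± 0.22 missed the threshold (adjusted p = 0.0519). Gadd45g had 0.06 and Mdm2, the p53 ubiquitin ligase gene, 0.08.

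Of 16 integrated stress response genes, which serve the pathway of eIF2alpha phosphorylation, 3 rose and 0 fell (median 0.28). They were Cebpb, Trib3 and Ppp1r15a. Cebpb, a liver transcription factor gene, read 12.70, 12.87, 12.82 and 12.54 at 6 h and 13.57, 13.54, 13.63 and 13.59 at 12 h. The 12 h arrays agreed within an SD of 0.04 and lay above all 6 h arrays (0.85 ± 0.11, adjusted p = 0.0153). Trib3, a pseudokinase that restrains Akt, had 0.84 ± 0.13 (adjusted p = 0.0244), although its dimmer probe gave 0.12 (adjusted p = 0.789). Ppp1r15a (Gadd34, named Myd116 on the array), which directs a phosphatase to eIF2alpha, had 0.79 ± 0.14 (adjusted p = 0.0426). Of the 8 fits without 1 array, 4 kept the call of Cebpb, 2 that of Trib3 and 1 that of Ppp1r15a.

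Gdf15, a secreted stress cytokine, read 11.53, 11.25, 10.86 and 10.57 at 6 h and 12.14, 11.87, 12.39 and 12.26 at 12 h. The groups did not overlap, but 1.11 ± 0.21 missed the threshold (adjusted p = 0.0528). The hepatokine gene Fgf21 read 6.22, 6.28, 5.93 and 6.15 at 6 h and 6.36, 7.33, 6.44 and 7.41 at 12 h. Arrays 2 and 4 at 12 h were high and arrays 1 and 3 close to the 6 h values (0.74 ± 0.25, adjusted p = 0.226). Atf4, the central factor of the response, had -0.15, Ddit3 (Chop) -0.07 and Asns -0.19, and none of them passed. Of 15 endoplasmic reticulum chaperone and unfolded protein response genes 0 passed (median 0.16, with 2 at an unadjusted p under 0.05).

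Inflammatory signalling genes changed singly. Of 13 chemokine and cytokine genes 1 rose (median -0.11). Cxcl2, a neutrophil-attracting chemokine gene, read 4.39, 4.48, 4.51 and 5.95 at 6 h and 6.41, 7.56, 6.95 and 8.58 at 12 h. It was detected on array 4 alone at 6 h, which read well above the other 6 h arrays, and on all 4 arrays at 12 h. The change was 2.55 ± 0.47 (adjusted p = 0.0479), and 1 of the 8 fits without 1 array kept the call, with an adjusted p of up to 0.144. Its other probe, undetected on every 6 h array, read 4.65, 4.90, 4.84 and 5.21 at 6 h and 6.65, 7.36, 7.13 and 7.96 at 12 h. That probe rose at least 3.78-fold (adjusted p = 0.00493). The related chemokine gene Cxcl1 had 0.34. Il1b, singled out after its values were seen, had -1.16, and neither passed.

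Of 11 NF-kappaB feedback targets 1 rose (median 0.07). It was Nfkbia, which encodes the inhibitor IkappaB alpha. It read 9.34, 9.12, 9.15 and 9.18 at 6 h and 10.23, 10.38, 10.44 and 10.41 at 12 h (SD 0.10 and 0.09). The groups were far apart relative to these spreads. The change was 1.17 ± 0.11 (adjusted p = 0.00317, and at most 0.0237 with 1 array left out). Its dimmer probe gave 0.81 (adjusted p = 0.228). Nfkbib, the related inhibitor gene, which was singled out after its values were seen and stands in no list, rose by 1.08 ± 0.17 (adjusted p = 0.0292). Nfkbiz had 0.81 and Tnfaip3 (A20) 0.48, and neither passed.

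The upstream windows of Cxcl2 and Nfkbia are shown because both rose and both are known targets of NF-kappaB. They cover chr5:90903649-90903898 (plus strand) and chr12:55492648-55492897 (minus strand) of GRCm38.p6, 250 bases before the RefSeq start, on the gene's own strand. Capitals mark a match on either strand to the kappaB letters, which are GGG, any 2 bases, then TTTCC.
Cxcl2: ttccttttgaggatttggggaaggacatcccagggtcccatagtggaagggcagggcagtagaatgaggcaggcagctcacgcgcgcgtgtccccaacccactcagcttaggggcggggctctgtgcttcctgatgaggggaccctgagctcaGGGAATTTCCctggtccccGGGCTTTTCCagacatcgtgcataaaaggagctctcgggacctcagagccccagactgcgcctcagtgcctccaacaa
Nfkbia: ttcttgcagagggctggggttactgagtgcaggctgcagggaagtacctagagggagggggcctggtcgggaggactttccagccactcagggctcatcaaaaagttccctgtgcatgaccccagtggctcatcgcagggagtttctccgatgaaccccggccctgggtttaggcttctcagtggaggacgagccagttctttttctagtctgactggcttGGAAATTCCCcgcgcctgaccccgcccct
The Cxcl2 window held 2 matches, GGGAATTTCC with its first base at -97 and GGGCTTTTCC at -78. The Nfkbia window held 1, at -29, on the opposite strand, and 1.41% of the 32851 windows held at least 1. Of the 37 named genes that passed and had such a window, 3 had a match in at least 1 window. A match shows the letters only.

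Interferon-induced genes leaned lower at 12 h without a single call. Of 15 measured, 14 had negative changes, 7 had an unadjusted p under 0.05 in that direction (against 9.04% of all genes), and the median was -0.37. Per-array list medians ran from 0.04 to 0.45 at 6 h and from -0.21 to -0.09 at 12 h. Ifit3, which encodes an RNA-binding antiviral protein, read 9.95, 9.53, 9.80 and 9.85 at 6 h and 9.06, 9.19, 9.34 and 9.25 at 12 h. Its groups did not overlap, but -0.57 ± 0.13 did not pass (adjusted p = 0.0924), and its other probes gave -0.14 and 0.03. The endothelial, stellate, Kupffer, T and NK, B cell and erythroid marker lists, given above, had negative medians too. Those of the Kupffer, T and NK, B cell and erythroid lists were positive within a BeadChip that held both times. The part of these cells in the interferon list was not tested.

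Among genes of energy and hormone signalling, Ddit4 (Redd1), an inhibitor of mTORC1, read 9.75, 9.70, 9.82 and 9.24 at 6 h and 10.73, 10.84, 11.31 and 11.32 at 12 h. All 12 h arrays were above the 6 h arrays (1.42 ± 0.19, adjusted p = 0.0129, and 0.0509 without 6 h array 2). It was the 1 of 14 AMPK subunit and mTOR regulator genes that passed. Txnip, the thioredoxin-binding arrestin induced by glucose, read 12.58, 11.75, 11.88 and 11.90 at 6 h and 13.12, 13.34, 13.01 and 13.80 at 12 h (1.29 ± 0.22, adjusted p = 0.0371). A further Txnip probe gave 1.41 ± 0.23 (adjusted p = 0.0292), and 1 of 8 fits without 1 array kept the call of the brightest probe. Pim3, a serine and threonine kinase gene, had 1.40 ± 0.20 (adjusted p = 0.0189), and 3 of the 8 fits without 1 array kept its call.

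Of 15 glucocorticoid targets 1 rose and 0 fell (median 0.53), with 6 of the list higher at an unadjusted p under 0.05 (against 5.54% of all genes). The metallothionein gene Mt2, which binds zinc and copper, read 7.38, 6.94, 7.51 and 8.08 at 6 h and 8.79, 9.27, 9.02 and 9.48 at 12 h (1.66 ± 0.24, adjusted p = 0.0203). Its groups were separate, with 6 h array 4 closest to the 12 h arrays. 3 of the 8 fits without 1 array kept this call. Mt1, the neighbouring metallothionein gene, had 0.03. Tsc22d3 (Gilz), singled out after its values were seen, had -0.90 and did not pass.

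Of 13 gluconeogenesis genes 0 passed, with a median of 0.31 (limma). At an unadjusted p under 0.05, 5 were higher (against 5.54% of all genes). Pck1, the gene of the enzyme that makes phosphoenolpyruvate, read from 7.90 to 8.92 over the 6 h arrays and from 8.75 to 9.47 over the 12 h arrays. The groups overlapped (0.55 ± 0.23, adjusted p = 0.324). G6pc, for glucose 6-phosphatase, had 0.02 ± 0.13, and the coactivator gene Ppargc1a -0.01 ± 0.11. Foxo3, a forkhead factor restrained by insulin, had 1.18 ± 0.25 (adjusted p = 0.0799). It was detected on 2 of 4 arrays at 6 h, so the size of this difference is uncertain. Within the 2 BeadChips that held both times the difference was 0.20 and 1.78. The hormone-responsive genes Igfbp1 (0.94 ± 0.44, adjusted p = 0.377) and Pdk4 (0.34 ± 0.27, adjusted p = 0.619) varied widely within each time. Fbp2, the muscle isoform of fructose bisphosphatase, was singled out after its values were seen. It was not detected at 6 h and was at least 1.86-fold higher at 12 h (adjusted p = 0.0243).

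Of 13 glycogen metabolism genes 1 fell and 0 rose (median -0.03), and 5 were lower at an unadjusted p under 0.05 (against 9.04% of all genes). Ppp1r3c, whose product targets protein phosphatase 1 to glycogen and favours its synthesis, read 12.38, 12.44, 12.04 and 12.65 at 6 h and 11.25, 11.01, 11.60 and 11.33 at 12 h. Each 12 h array was below each 6 h array, and the gene fell by 1.08 on the log2 scale (SE 0.17, adjusted p = 0.0261), or 2.11-fold. 2 of the 8 fits without 1 array kept the call, and the adjusted p reached 0.102.

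Of 18 fatty acid synthesis genes 1 fell (median 0.01). Elovl6, which lengthens palmitate to stearate, read 9.55, 9.52, 10.02 and 9.87 at 6 h and 8.73, 8.62, 9.09 and 8.59 at 12 h (-0.98 ± 0.16, adjusted p = 0.0338). The groups were separate, and the difference was -1.40 and -1.27 within the 2 chips that held both times. 1 of the 8 fits without 1 array kept its call, and the adjusted p reached 0.128. The synthase gene Fasn had -0.15, Scd1 0.12 and their regulator Srebf1 0.04. Of 21 cholesterol synthesis genes, 20 fatty acid oxidation genes and 16 bile acid genes 0 passed (limma; 3 lower, 1 higher and 1 lower in turn at an unadjusted p under 0.05). Cyp7a1, the rate-limiting enzyme of bile acid synthesis, read 11.90, 11.99, 12.40 and 12.04 at 6 h and 11.42, 11.46, 11.03 and 10.87 at 12 h. Its groups did not overlap, and -0.89 ± 0.17 missed the threshold (adjusted p = 0.058).

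The largest decrease by a named gene was that of Clec2d, called Ocil on the array, a C-type lectin that is a ligand of natural killer cell receptors. It read 12.37, 11.94, 11.90 and 12.33 at 6 h and 9.53, 9.50, 9.80 and 9.41 at 12 h. The groups were more than 2 log2 units apart at their nearest arrays. The gene fell by 2.58 on the log2 scale (SE 0.15, 5.97-fold), with the smallest adjusted p of all probes (0.000177, and at most 0.00274 with 1 array left out). The 7 T and NK cell markers had a median of -0.30 and the 11 Kupffer cell markers one of -0.25, with 10 of the 11 negative. Without both of the brightest 6 h arrays these medians were 0.22 and 0.03, and Clec2d had -2.57. The part of such cells in the fall of Clec2d was not tested.

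Sertad3, a transcriptional coregulator gene, read 7.12, 7.46, 6.52 and 7.42 at 6 h and 5.65, 5.30, 5.71 and 5.26 at 12 h. It fell by 1.65 on the log2 scale (SE 0.21, adjusted p = 0.0129, and up to 0.0544 without 6 h array 2 or 12 h array 1 or 2). At 12 h it was detected on 2 of 4 arrays. Foxa1, a pioneer factor of liver development, read 8.58, 8.24, 8.52 and 8.28 at 6 h and 7.45, 7.35, 7.73 and 7.44 at 12 h (-0.91 ± 0.13, adjusted p = 0.0222). Every 12 h array was below every 6 h array, and 4 of the 8 fits without 1 array kept the call. Snai2 (Slug), a repressor of epithelial genes, had -0.94 ± 0.17 (adjusted p = 0.0453). Btk, the B cell tyrosine kinase gene, had -0.87 ± 0.15 (adjusted p = 0.0347). Btk was detected on 2 of 4 arrays at 12 h, so the size of its fall is uncertain. The 3 B cell markers measured had a median of -0.50. Without both of the brightest 6 h arrays that median was 0.11, and Btk had -0.83. Rnf145, a ubiquitin ligase gene of the endoplasmic reticulum, had -0.99 ± 0.16 (adjusted p = 0.0309). Of the 8 fits without 1 array, 1 kept the call of Snai2, 1 that of Btk and 2 that of Rnf145.

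Genes named Zfp with a number made up 5 of the 15 largest named decreases. Of 166 such genes measured 8 fell (4.82%, against 0.287% of all genes), counted after several were seen here. Zfp809, known in mouse for silencing of retroviral elements, read 7.20, 7.99, 7.70 and 7.74 at 6 h and 6.57, 6.70, 6.61 and 6.59 at 12 h. The 12 h arrays agreed within an SD of 0.06, and the gene fell by 1.04 on the log2 scale (SE 0.16, adjusted p = 0.0263). The other 4 were Zfp747, Zfp60, Zfp94 and Zfp84, at -1.01, -0.94, -0.93 and -0.92, with adjusted p of 0.0309 to 0.0426. At 12 h Zfp94 was detected on 2 of 4 arrays and Zfp747 on 3. Of the 8 fits without 1 array, 1 each kept the calls of Zfp809, Zfp747, Zfp60 and Zfp94, and 0 that of Zfp84. A further Zfp60 probe gave -0.03 (adjusted p = 0.940). Snn, which encodes the small membrane protein stannin, completed the 15 decreases at -0.94 ± 0.12 (adjusted p = 0.0114, and 0.0546 without 12 h array 1). Cish, a feedback inhibitor of cytokine receptors, read 9.67, 10.42, 9.24 and 10.70 at 6 h and 8.89, 9.08, 8.60 and 8.10 at 12 h. All 12 h arrays were lower, but the 6 h arrays differed among themselves and -1.34 ± 0.32 did not pass (adjusted p = 0.111).

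The remaining named increases were Tas1r2, Cpeb2 and Anxa7. Tas1r2, a sweet taste receptor gene, read 4.75, 4.80, 5.71 and 4.84 at 6 h and 7.02, 6.63, 7.40 and 6.50 at 12 h (1.86 ± 0.26, adjusted p = 0.0171, and up to 0.0759 without 6 h array 2 or 12 h array 1). At 6 h it was detected on 1 array, so the size of its rise is uncertain, and it ran from 0.85 to 2.35 over the alternatives. Cpeb2, a regulator of mRNA polyadenylation, had 1.25 ± 0.15 (adjusted p = 0.0114, and 0.0507 without 12 h array 1). The annexin gene Anxa7 had 1.23 ± 0.20 (adjusted p = 0.0292, called in 2 of the 8 fits without 1 array), and its other probe, detected on 3 of the 8 arrays, gave -0.05 (adjusted p = 0.938).

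Cold-induced and purine genes were looked at because the title names hypometabolism induced by 5'-AMP. Cirbp, an RNA-binding protein gene induced by mild cold, read 7.43, 7.86, 7.73 and 7.71 at 6 h and 8.53, 8.33, 8.47 and 8.48 at 12 h. All 12 h arrays were higher (0.77 ± 0.12, adjusted p = 0.0292), and 0 of the 8 fits without 1 array kept the call, with an adjusted p of up to 0.117. Rbm3, the other well-known cold-induced gene, read 7.80, 8.12, 7.95 and 7.49 at 6 h and 8.01, 7.92, 8.02 and 7.74 at 12 h. Its groups overlapped (0.08 ± 0.15, adjusted p = 0.849). Of 22 genes of adenosine and AMP turnover 0 passed, with 2 higher and 1 lower at an unadjusted p under 0.05 and a range of -0.41 to 0.42. Adk, the adenosine kinase gene, had -0.04 ± 0.11 and Nt5e (CD73), which makes adenosine from 5'-AMP, -0.15 ± 0.19. Probes for Ada, the adenosine deaminase gene, and for the pancreatic lipase genes Clps and Pnlip did not pass the detection filter.

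Large housekeeping groups held no call, which says little where only 0.697% of all genes passed. Their counts at an unadjusted p under 0.05 stand against 5.54% of all genes higher and 9.04% lower. Of 38 respiratory chain genes 0 passed (limma; median 0.05, range -0.35 to 0.32, with 2 higher and 4 lower at an unadjusted p under 0.05). Ndufa5, a subunit gene of complex I, had the smallest p of this list at -0.35 ± 0.12 (adjusted p = 0.227). Of 37 cytosolic ribosomal protein genes 0 passed (median -0.04, range -0.40 to 0.30, with 5 lower at an unadjusted p under 0.05). Of 21 cytochrome P450 and drug metabolism genes 0 passed (median 0.02, 3 lower at an unadjusted p under 0.05), and likewise 0 of 23 acute phase genes (median 0.04, 1 higher and 1 lower). Of 11 urea cycle genes and 12 cytosolic heat shock genes (medians of 0.07 each) 0 passed, with 0 at an unadjusted p under 0.05. Socs3, the feedback inhibitor of interleukin 6 signalling, had 0.43 ± 0.20 (adjusted p = 0.379). Over the 37 pathway lists the called genes numbered 22, of which 19 rose and 3 fell. The other 58 of the 80 called genes stand in no list. Among those 58, and singled out after their values were seen, were the ephrin receptor gene Epha2 at 1.18 ± 0.17, its ligand gene Efna1 at 0.81 ± 0.15, the antiproliferative gene Tob2 at 1.04 ± 0.16 and the liver mitochondrial carrier gene Slc25a47 at 0.65 ± 0.11, with adjusted p of 0.0206 to 0.0479.

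**Figure D5:**
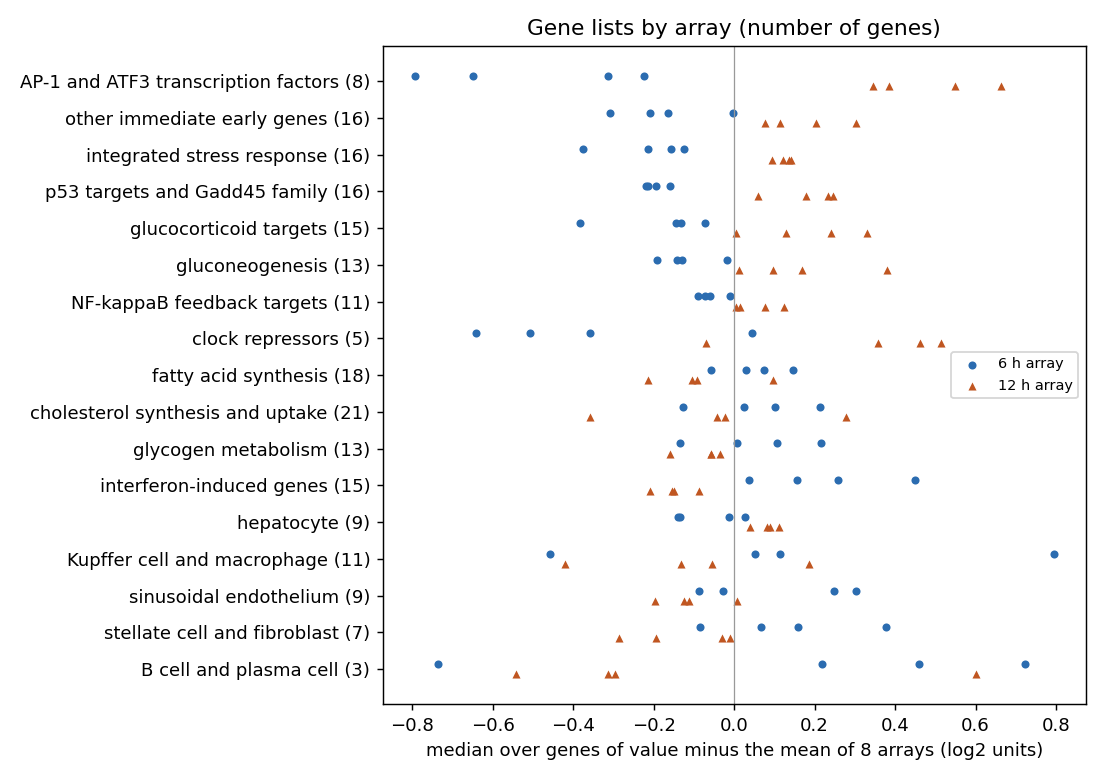
Median over the genes of a list of each gene's log2 value minus its mean over the 8 arrays (horizontal axis), with 1 point per array, circles for 6 h and triangles for 12 h, and the number of genes in brackets. Of the lists shown, the AP-1 and ATF3 list is furthest apart between the times, interferon-induced genes are lower at 12 h, and the Kupffer cell and B cell markers differ mainly among arrays of the same time.

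The 8 arrays lay on 5 BeadChips, and 2 chips held 1 array of each time. A fit with chip as a block, which leaves 2 residual degrees of freedom, called 0 probes (limma; 980 at an unadjusted p under 0.05, smallest adjusted p 0.134). Leaving out 1 array at a time gave 59, 20, 84 and 59 called probes without 6 h arrays 1 to 4 and 14, 26, 35 and 28 without 12 h arrays 1 to 4. Of the 39 named genes that passed, 25, 11, 29 and 24 stayed called without 6 h arrays 1 to 4, and 8, 13, 17 and 14 without 12 h arrays 1 to 4. All 39 kept their direction. Their groups did not overlap, so leaving out 1 array could hardly turn it, and this adds no support. The 7 called in every one of these fits were Atf3, Ciart, Clec2d, Csrnp1, Gadd45b, Nfkbia and Nr1d1.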

How the data were processed

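Per the file headers, the authors deposited for each array and probe a mean bead signal, which is an intensity on a linear scale, and a detection p-value, exported from GenomeStudio per the submitters' processing notes. A second deposited table of normalised intensity served as an alternative only. How that table was normalised is not given in the sources used here. Groups came from the labels. The members and gene lists were chosen with earlier results of these data known.

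The 8 arrays were normalised together with neqc (limma 3.58.1, R 4.3.3, statmod 1.5.0), which corrects background by normexp from the detection p-values, adds an offset of 16, equalises quantiles and takes log2. A probe was kept where 3 or more of the 8 arrays gave it a detection p below 0.05. Of these, 771 were detected on exactly 3 arrays (median raw signal 110), while 1070 probes detected on 2 arrays (median 106) were left out. Each probe was fitted with lmFit and eBayes (6 residual degrees of freedom, 4.04 prior, 2-sided), and Benjamini-Hochberg adjustment ran over the 16320 probes with a threshold of 0.05. The number of arrays limits the precision. A gene was represented by its brightest probe. Of 12017 array symbols 6568 were current in RefSeq, 3680 matched a synonym, 164 matched by gene ID, 59 were ambiguous and 1546 kept the array's name.

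Genes were named by a rule. It takes the 15 largest increases and 15 largest decreases that passed, whose groups did not overlap, that all 4 arrays of the higher group detected and whose names are more than a clone or predicted name. It adds up to 4 called members of each list, or the member with the smallest p, and 36 genes always taken. Genes named outside it were singled out after their values were seen. Of the 39 named genes that passed, 37 had an upstream window in RefSeq. The method was also run on simulated data, with independent noise of equal spread at both times. No chip or brightness differences were simulated, so that run does not bear on them.

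The fit was repeated with background left in, with median centring in place of quantiles, on the authors' table, with every probe or only those detected at p under 0.01 on all 8 arrays, by gene (brightest or mean probe), on all 11 arrays, with array weights, with a trended and robust variance, with blocks for replicate number or chip, with array brightness as a covariate and without each array in turn. Leaving out both of the brightest 6 h arrays was chosen after seeing the data.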

Additional observations from a re-analysis of the deposited data

Results flagged for a closer look

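In 8 of 184 groups of 4 arrays checked among the named genes, 1 array stood apart from the other 3 by Dixon's 95% criterion for 4 values. Chance alone flags about 1 group in 20. At 6 h, Cxcl2 read 5.95 on array 4 against 4.39 to 4.51 on the others, and Tas1r2 read 5.71 on array 3 against 4.75 to 4.84. Atf3 read 9.54 on 6 h array 3 against 9.22 to 9.26, and Zfp60 read 6.76 on the same array against 7.17 to 7.20. Cpeb2 read 6.65 on 6 h array 1 against 6.22 to 6.26, and the serum amyloid gene Saa4 read 11.7 on that array against 12.1 to 12.2. Egr1 read 13.5 on 6 h array 2 against 13.8 on each of the others. The ribosomal protein gene Rpl30 read 9.40 on 12 h array 4 against 9.48 on the others. For Cxcl2, Tas1r2, Atf3, Zfp60 and Cpeb2 every 12 h array lay beyond the outlying 6 h array.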

How the results depend on the processing

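Against 102 called probes (62 higher, 40 lower), 153 were called without background correction (73 lower), 155 with all 11 arrays (74 lower), 213 with array brightness as a covariate (124 lower), 50 with no filter (33 higher, 17 lower) and 0 with chip as a fixed block (0 higher, 0 lower). Leaving out 1 array gave 14 to 84 called probes, 13 to 57 of them higher and 1 to 27 lower, where fewer arrays enter the fit. Without both of the brightest 6 h arrays 75 were called (36 higher, 39 lower), of which 33 were among the 102. Chip as a random block gave 112, which include all 102. Median centring called 102, of which 71.6% were higher against 60.8%, and 87 were shared. The share called higher was 66% with no filter, 52.3% without background correction and with all 11 arrays, 41.8% with brightness as a covariate and 48% without the brightest 6 h arrays. Apart from the replicate block, given below, the remaining alternatives gave 75 to 132 probes.

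The labels do not say that replicate numbers pair the animals. Deviations of same-numbered arrays from their group means correlated at 0.14, -0.03, 0.04 and 0.47 for numbers 1 to 4. The arrays numbered 4 shared a BeadChip, so chip and pairing cannot be told apart there. With the replicate block 60 probes were called (46 higher, 14 lower), 52 of them among the 102.

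Of the 39 named genes that passed, 0 stayed called with chip as a fixed block, 17 with no filter, 18 without the brightest 6 h arrays, 26 with brightness as a covariate, 26 with the replicate block and 8 to 29 with 1 array left out. The stricter filter measured 26 and called all of them, and the other alternatives kept 32 to 39. All 39 kept their direction under every alternative that measured them. Because their groups did not overlap, this was largely fixed beforehand where arrays were left out or chip was a block. Directions turned for 12 named genes that had not passed. Nr1d2 gave -0.0052 without background correction, -0.0065 with chip as a fixed block, -0.0030 with chip as a random block and -0.20 to 0.10 with 1 array left out. Adk gave 0.011 with median centring, 0.11 with the mean of probes and 0.039 with the chip block. Ppargc1a gave 0.024 with median centring, 0.015 with the chip block and -0.038 to 0.043 with 1 array left out. Sox9 gave 0.071 with the mean of probes, and Per2 -0.20 with the chip block. With brightness as a covariate Adipoq gave 0.54, G6pc -0.081, Npas2 -0.14, Per1 -0.10, Per2 -0.48 and S100a8 0.36. Without the brightest 6 h arrays G6pc gave -0.11, Npas2 -0.095, Pdk4 -0.057, Per1 -0.038, Per2 -0.16 and S100a8 0.32. With 1 array left out G6pc gave -0.039 to 0.11 and Rbm3 -0.033 to 0.18. The cause was not tested.

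List medians of the AP-1 and ATF3 genes (0.65 to 1.13), integrated stress response (0.24 to 0.39), p53 and Gadd45 genes (0.11 to 0.35), glucocorticoid targets (0.38 to 0.62), gluconeogenesis (0.19 to 0.47) and interferon-induced genes (-0.47 to -0.27) kept their sign under all 23 alternatives. So did those of endothelial (-0.36 to -0.19), stellate cell (-0.53 to -0.08), erythroid (-0.42 to -0.11) and hepatocyte markers (0.03 to 0.33). Those of Kupffer cell markers (-0.47 to 0.04), B cell markers (-0.83 to 0.24) and T and NK cell markers (-0.47 to 0.34) did not. Nor did those of neutrophil (-0.61 to 0.44), adipocyte (-1.11 to 0.66), pancreatic acinar (-0.57 to 0.26) and cholangiocyte markers (-0.13 to 0.22). Probes near background carry most doubt, since a signal below detection gives only a bound, and 12838 of the 16320 probes were detected on all 8 arrays.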

Other observations

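Zinc finger genes named Zfp with a number were looked at after several appeared among the decreases, so no test is given. Of 166 such genes measured 8 fell (4.82%) and 0 rose, against 0.287% of all genes that fell. Negative changes were found in 111 of them (66.9%), against 52% of all genes, and their median was -0.14. Besides the 5 named in the report, the genes that fell were Zfp101 at -0.82 ± 0.15, Zfp251 at -0.82 ± 0.15 and Zfp790 at -0.70 ± 0.13 (limma, adjusted p of 0.0426 to 0.0473).

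Among the called genes 15 carry a clone or predicted name. The largest were E030034J16Rik, which rose by 2.07 ± 0.23, and 2900060B14Rik, which fell by 2.49 on the log2 scale, nearly as much as Clec2d. A probe annotated as 28S ribosomal RNA was also called higher, at 0.92 ± 0.17 (adjusted p = 0.0479). Probes detected on all 4 arrays of one time and on none of the other numbered 19 for 12 h and 35 for 6 h. The histone genes H3c13 and H3f3b rose by 1.22 ± 0.20 and 0.87 ± 0.15, and the DNA helicase gene Blm by 0.82 ± 0.12 (limma, adjusted p of 0.0203 to 0.0430). These genes were singled out after their values were seen.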
